A study of Mus musculus with 21 samples.

Results

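The genes of the mitochondrial carrier family SLC25 were examined in the left ventricle of mice. Members were all rows of the deposited gene table whose symbol is Slc25a followed by a number, which gave 47 of 24054 genes. Of these, 41 passed the filter on low counts and were tested together with the other genes that passed, 14135 in all. The series measured total RNA from flash-frozen left ventricular myocardium of C57BL/6J mice after transverse aortic constriction (TAC), a surgery that narrows the aorta and loads the heart with pressure, or after a sham operation. There were 5 sham libraries, 5 libraries from mice with TAC and no drug, 5 from mice with TAC given sildenafil, an inhibitor of the cyclic GMP phosphodiesterase PDE5A, and 6 from mice with TAC given PF-04449613, an inhibitor of PDE9A. Dosing began 1 week after the operation and lasted 4 weeks. Each library carries an ear tag of its own, so a library is 1 animal. The labels state no dose, vehicle, sex or age, and they give the sham and untreated TAC mice no drug. The design asks what pressure load did to these transcripts and whether either inhibitor moved them.

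SLC25 proteins sit mostly in the inner mitochondrial membrane, which is otherwise closed to charged metabolites. Each has the same folded repeat around a central site that opens in turn to the matrix and to the space between the membranes, and most exchange one metabolite for another. In heart muscle they bring in ADP, phosphate, acylcarnitines and reducing equivalents for oxidative phosphorylation and send ATP out to the contractile apparatus.

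Deposited expected counts (estimates of reads per gene that divide ambiguous reads and need not be whole) summed to between 22670467 and 40989905 per library. Levels below are in CPM (counts scaled to a fixed library total) after TMM scaling, which corrects for differences in RNA composition. Differences are log2 fold changes with their standard error (SE) from edgeR's quasi-likelihood test, and a gene was called where its Benjamini-Hochberg adjusted p, over all 14135 genes, was under 0.05. The summed level of 7 cardiomyocyte markers was 81627 to 92856 CPM in sham and 39660 to 71698 CPM in TAC. Of the 7, 5 fell, and none was at 0 in any library. Myh6 made up the largest part of the sum, with means of 45267 CPM in sham and 27455 CPM in TAC. This sum, here and below, therefore follows Myh6 most. The log2 fold changes of the 7 ran from -0.72 to -0.13, the last that of Tnnt2 (means of 4539 and 4162 CPM). The summed level of 7 fibroblast markers was 2164 to 2629 CPM in sham and 3274 to 4070 CPM in TAC, and 6 of the 7 rose. Activated fibroblast markers, 5 genes, summed to 171 to 242 CPM in sham and to 376 to 3166 CPM in TAC, and 4 of the 5 rose. The 4 B cell markers rose too, from sums of 0.983 to 2.59 CPM in sham to 3.04 to 5.02 CPM in TAC. Of 5 tested macrophage markers 1 fell, and of 5 smooth muscle and pericyte markers 1 rose. Of 3 brown adipocyte markers only Cidea was tested, and it rose. The other 2, Ucp1 and Elovl3, were at or near 0, with at most 0.0379 and 0.0542 CPM in any library. All 9 tested erythroid markers lay below 0 in TAC, with 0 called by edgeR and 7 at an unadjusted p under 0.05. Over all genes in TAC against sham, 13.0% were called lower, 12.2% higher, and 39.6% had an unadjusted p under 0.05. The marker shifts accompany each TAC result below, and their part in it was not tested. In bulk tissue, fewer cells of a type and less RNA per cell cannot be told apart. The 3 atrial markers summed to at most 27.5 CPM, in 1 library given the PDE9A inhibitor.

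The stretches upstream of 4 called carriers are shown with the motif matches found in them. They are the called genes with a single RefSeq window that held at least 1 of 4 searched motifs, 2 per direction with the lowest p, cut to the part outside every annotated exon. Capitals mark motif matches on either strand: the CCAAT box (CCAAT, or ATTGG on the other strand), the GC box (GGGCGG, or CCGCCC) and the NRF1 motif (GCGC, any base, then TGCGC). The ERR half-site (AAGGTCA) was searched too and matched none of these 4. Before the cut, the windows of all 4 genes held a GC box, while the printed part of Slc25a36 shows none. Because the genes were chosen for holding a motif and the windows were cut, the printed stretches cannot tell lower from higher genes by these elements. All 4 genes are on the minus strand, and the sequences run 5′ to 3′ on that strand, in RefSeq's GRCm38.p6.
Slc25a3 (lower in TAC), chr10:91124060-91124217: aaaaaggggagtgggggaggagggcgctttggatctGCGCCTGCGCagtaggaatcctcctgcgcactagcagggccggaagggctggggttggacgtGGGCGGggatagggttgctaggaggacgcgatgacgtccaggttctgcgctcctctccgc
Slc25a29 (lower in TAC), chr12:108835884-108836045: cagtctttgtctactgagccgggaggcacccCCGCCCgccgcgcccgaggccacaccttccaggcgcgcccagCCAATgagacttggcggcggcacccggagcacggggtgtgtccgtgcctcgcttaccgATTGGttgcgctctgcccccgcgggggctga
Slc25a36 (higher in TAC), chr9:97111158-97111291: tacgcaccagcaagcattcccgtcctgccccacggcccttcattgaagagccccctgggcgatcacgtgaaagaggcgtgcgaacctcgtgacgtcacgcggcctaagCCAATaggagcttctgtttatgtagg
Slc25a1 (higher in TAC), chr16:17928220-17928469: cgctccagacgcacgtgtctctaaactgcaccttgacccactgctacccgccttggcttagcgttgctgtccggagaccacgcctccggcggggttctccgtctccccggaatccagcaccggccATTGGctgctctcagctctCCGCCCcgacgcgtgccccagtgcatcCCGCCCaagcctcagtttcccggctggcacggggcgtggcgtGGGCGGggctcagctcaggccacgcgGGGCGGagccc

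The Slc25a29 stretch is the whole interval between 2 carrier genes that point away from each other: Slc25a29 starts at 108835883 on the minus strand of chromosome 12 and Slc25a47 at 108836046 on the plus strand, with 162 bases between them (GRCm38, GENCODE M21). It holds 2 CCAAT boxes, 1 in each orientation. Over the 250 bases before the start site, RefSeq windows were found for 36 of the 47 members, 46 windows in all. A GC box was in 69.6% of member windows and in 32.7% of all 32851 windows, and a CCAAT box in 45.7% against 33.8%. The NRF1 motif was in 4.35% of member windows against 3.74%, and the ERR half-site in 2.17% against 4.08%. The median GC content was 57.4% for members and 52.4% for all windows. These are matches of letters in a window.

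Slc25a4, the adenine nucleotide translocase ANT1 that exchanges matrix ATP for cytosolic ADP, was by far the most abundant carrier. Per kilobase of annotated exon its sham level was 2268 ± 177 CPM (SD, n = 5). Next came Slc25a11, the oxoglutarate-malate carrier, at 256 ± 28.4 CPM per kilobase. Slc25a3, the phosphate carrier, at 198 ± 18.2, and Slc25a5, the second translocase ANT2, at 190 ± 14.2, did not differ beyond their spread. Below them were Slc25a34 at 74.5 ± 6.09, a heart-enriched carrier whose substrate is not settled, and Slc25a13, the aspartate-glutamate carrier citrin, at 55.6 ± 5.05. Slc25a20, the carnitine-acylcarnitine carrier, at 42.9 ± 5.48, Slc25a12, the aspartate-glutamate carrier aralar, at 40.3 ± 4.07, and Slc25a39, a glutathione carrier, at 37.3 ± 3.93 CPM per kilobase overlapped in their spread. The length used is that of all annotated exons of a gene merged, and the order below Slc25a4 depends on it. In CPM alone, Slc25a3 was at 1097 ± 101 and Slc25a11 at 543 ± 60.2 in sham. Likewise, Slc25a12 was at 296 ± 29.9 and Slc25a13 at 211 ± 19.2 CPM.

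**Figure D1:**
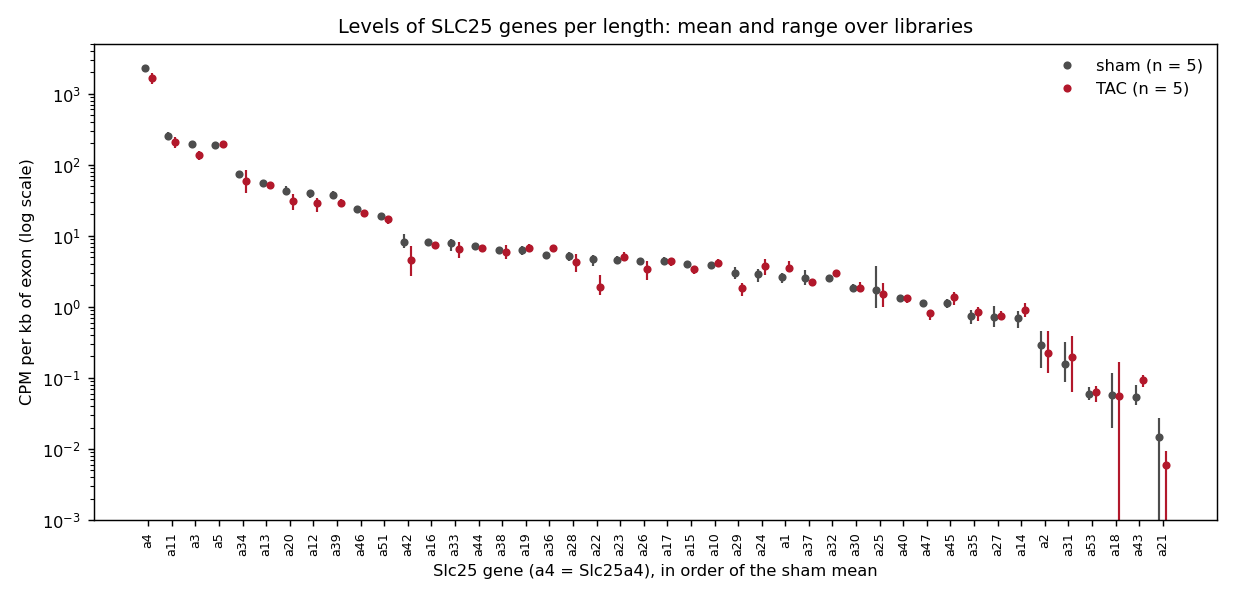
Mean (point) and range over libraries (line) of each SLC25 gene in sham and TAC, in CPM per kilobase of annotated exon on a log scale, ordered by the sham mean; a range that includes a library at 0 runs to the lower edge, and the 3 genes at 0 in every sham library are not drawn. Slc25a4 stands at 2268 in sham, above Slc25a11 at 256, and most carriers lie under 10.

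After TMM scaling, the levels of the 47 genes summed to 9006 ± 688 CPM in sham (SD, n = 5) and 6884 ± 950 CPM in TAC. The sum was 7226 ± 551 CPM with sildenafil and 7449 ± 1476 CPM with the PDE9A inhibitor (n = 6). Slc25a4 alone made up 54.3 to 60.1% of the members' counts in each library. Among TAC libraries, 4 and 3 had the lowest member sums (5739 and 6186 CPM) and 2 and 5 the highest (7788 and 7878 CPM). TAC libraries 4 and 3 also had the lowest cardiomyocyte marker sums of their group, 39660 and 52489 CPM, and the highest activated fibroblast sums, 3166 and 2554 CPM.

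The 6 members that did not pass the filter were nearly silent in this tissue. Slc25a18, a glutamate carrier, reached at most 0.321 CPM in any library, Slc25a43, an orphan carrier, 0.265 CPM, and Slc25a21, the oxodicarboxylate carrier, 0.189 CPM. Slc25a48 had at most 0.0419 CPM. Slc25a41 and Slc25a54 had 0 counts in all 21 libraries, where the limit that a count of 0 allows is 3 counts per library.

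TAC lowered 9 carriers and raised 3. Of the 41 tested, 9 fell (22.0%), against 13.0% of all genes, and 3 rose (7.32%), against 12.2% of all genes. Below 0 lay 26 of the 41, against 50.1% of all genes. The median log2 fold change of the 41 was -0.12, and over all tested genes it was -0.00131. In 7 carriers every TAC library lay below every sham library (8.00% of all genes did so), and in 3 every TAC library lay above (8.52%). The 9 that fell include the principal routes of ATP and phosphate and the aspartate-glutamate carrier aralar, while the second translocase, the other aspartate-glutamate carrier and the carriers that resemble uncoupling proteins were not called.

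**Figure D2:**
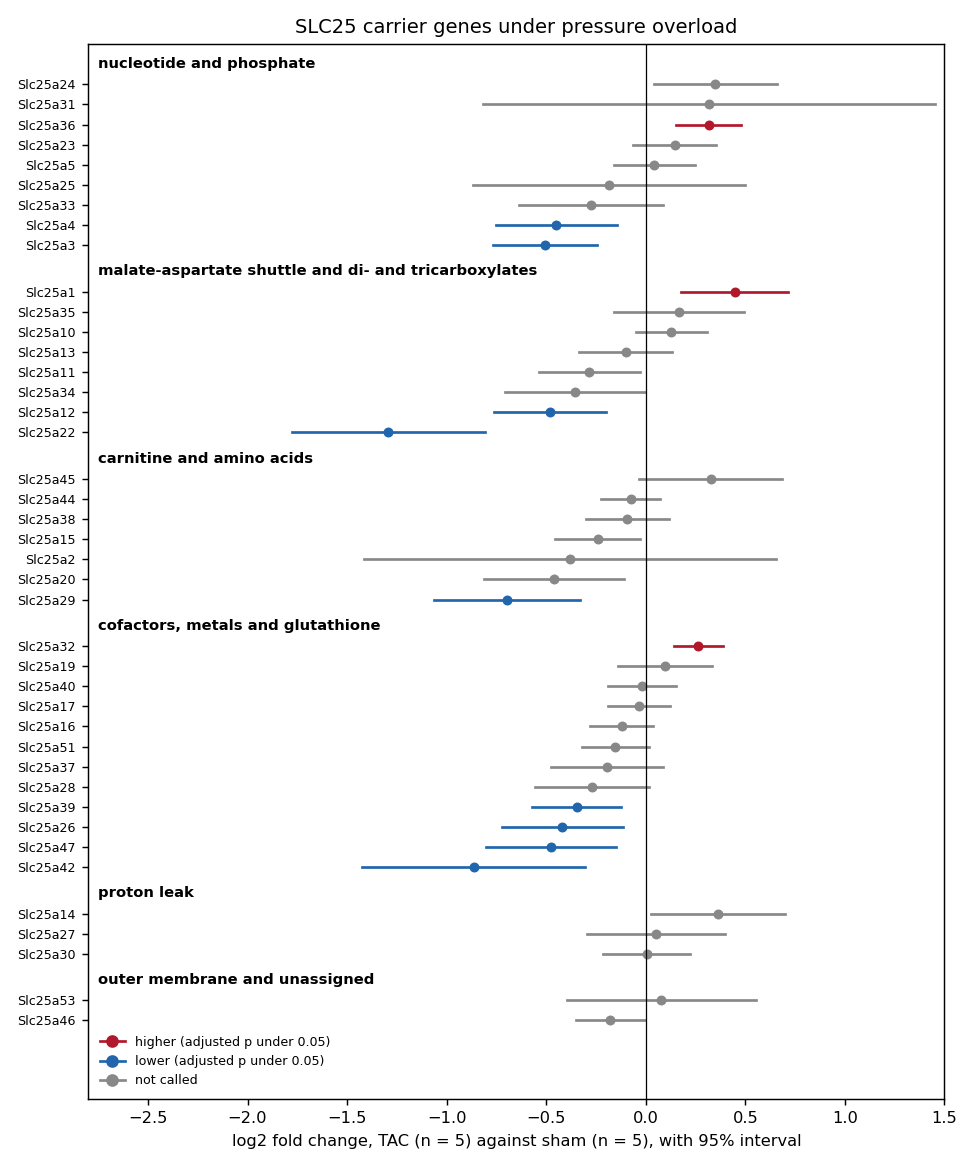
Log2 fold change of each tested SLC25 gene in TAC against sham with its 95% interval, grouped by role; red points are called higher, blue points lower, and grey points are not called. Slc25a22 lies farthest to the left at -1.29, and the 3 called genes to the right of 0 are Slc25a32, Slc25a36 and Slc25a1.

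Of the 9 tested carriers of nucleotides and phosphate, 2 fell and 1 rose. Slc25a4 (chromosome 8, 46206797 to 46211284, minus strand) was at 5669, 4969, 5335, 5826 and 4881 CPM in sham libraries 1 to 5 and at 3837, 4478, 3434, 3166 and 4637 CPM in TAC libraries 1 to 5. The groups did not overlap, and TAC libraries 3 and 4 were lowest. Like those of Slc25a3 and Slc25a42, its expected counts had decimals in all 21 libraries, so its values include reads divided between genes by estimate. It fell by 0.45 on the log2 scale (SE 0.14, adjusted p = 0.0298). With any of sham 1, 3, 4 and TAC 1, 3, 4 left out, the adjusted p was between 0.0517 and 0.0896, and with the ear tag as a term it was 0.0561, with the log2 fold change between -0.44 and -0.37 in these 7 fits.

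Slc25a3 (chromosome 10, 91116574 to 91124059, minus strand), which imports the phosphate for ATP synthesis, was at 1197, 1009, 1101, 1197 and 983 CPM in sham and at 769, 871, 698, 653 and 869 CPM in TAC. Every TAC library lay below the lowest sham library. It fell by 0.51 on the log2 scale (SE 0.13, adjusted p = 0.00904), to 70.4% of sham, and its call held without each library in turn. Slc25a5 (X, 36795651 to 36798807, plus strand), the translocase found in most dividing tissues, was at 325, 311, 332, 321 and 273 CPM in sham and 345, 280, 341, 332 and 310 CPM in TAC. The groups overlapped throughout. Its log2 fold change was 0.04 (95% interval -0.16 to 0.24, adjusted p = 0.772), and its sign depended on which library was left out.

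Slc25a36 (chromosome 9, 97074961 to 97111157, minus strand) carries pyrimidine nucleotides. It was at 50.4, 53.6, 49.4, 50.4 and 54.4 CPM in sham and 66.2, 64.5, 61.4, 71.5 and 57.5 CPM in TAC. All TAC libraries lay above all sham libraries, and it rose by 0.32 (SE 0.08, adjusted p = 0.00899). Slc25a24, a calcium-regulated carrier of ATP-magnesium and phosphate, had a log2 fold change of 0.35 (adjusted p = 0.0843) and was not called.

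Of the 8 tested carriers of the malate-aspartate shuttle and of di- and tricarboxylates, 2 fell and 1 rose. Slc25a22, a glutamate carrier (chromosome 7, 141429744 to 141437892, minus strand), had the largest fold change among the 41. It was at 22.3, 30.9, 27.0, 32.5 and 27.1 CPM in sham and at 9.28, 12.6, 8.86, 9.76 and 16.7 CPM in TAC. No TAC library reached the lowest sham library. It fell by 1.29 (SE 0.23, 95% interval -1.78 to -0.81, adjusted p = 0.00262), to 40.8% of sham.

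Slc25a12, aralar (chromosome 2, 71271063 to 71367749, minus strand), exchanges matrix aspartate for cytosolic glutamate in the shuttle that carries reducing equivalents inward. It was at 320, 282, 305, 322 and 251 CPM in sham and 212, 250, 195, 158 and 245 CPM in TAC. The groups were apart by less than 1 CPM, between the highest TAC library and the lowest sham library. It fell by 0.48 (SE 0.13, adjusted p = 0.0155), and without TAC library 4 the adjusted p was 0.0503. Its paralogue Slc25a13 had a log2 fold change of -0.10 (adjusted p = 0.527). Slc25a11, the shuttle's other carrier (chromosome 11, 70644196 to 70647479, minus strand), was at 588, 475, 535, 618 and 497 CPM in sham and 445, 522, 404, 361 and 497 CPM in TAC. The groups overlapped, and the log2 fold change of -0.28 (SE 0.12, adjusted p = 0.0888) did not pass, and without TAC library 2 it passed (adjusted p = 0.0443).

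Slc25a1, the citrate carrier that supplies cytosolic acetyl units (chromosome 16, 17925223 to 17928219, minus strand), was at 4.69, 5.85, 5.70, 5.68 and 6.39 CPM in sham and 6.80, 6.69, 7.83, 9.66 and 7.56 CPM in TAC. The groups did not overlap, with TAC library 4 highest. It rose by 0.45 (SE 0.13, adjusted p = 0.0180). The call was lost without sham library 1 (adjusted p = 0.0523) or TAC library 4 (0.0672).

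Of the 7 tested carriers of carnitine and amino acids, 1 fell. Slc25a29, a carrier of basic amino acids (chromosome 12, 108825873 to 108835883, minus strand), was at 7.90, 6.37, 9.42, 9.08 and 6.43 CPM in sham and 5.12, 5.61, 4.27, 3.65 and 5.56 CPM in TAC. The groups did not overlap. It fell by 0.70 (SE 0.18, adjusted p = 0.00993), and the call held without each library in turn. Slc25a20 (chromosome 9, 108662088 to 108684641, plus strand), through which long-chain acylcarnitines enter the matrix for fatty acid oxidation, was at 222, 182, 189, 247 and 198 CPM in sham and 144, 188, 125, 112 and 187 CPM in TAC. TAC libraries 2 and 5 lay within the sham range. Its log2 fold change of -0.46 (SE 0.17, adjusted p = 0.0516) did not pass, and it passed without TAC library 2 (0.0245) or 5 (0.0311), in DESeq2's Wald test (0.0313) and in a fit of the 2 groups alone (0.0447).

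Of the 12 tested carriers of cofactors, metals and glutathione, 4 fell and 1 rose, and 10 of the 12 lay below 0. Slc25a39, needed for mitochondrial glutathione import (chromosome 11, 102402985 to 102407946, minus strand), was at 106, 92.5, 105, 118 and 92.3 CPM in sham and 83.8, 82.3, 72.6, 75.8 and 89.5 CPM in TAC, without overlap. It fell by 0.35 (SE 0.11, adjusted p = 0.0244), and with any of sham 1, sham 4, TAC 3 and TAC 4 left out the adjusted p was between 0.0511 and 0.0757. Its paralogue Slc25a40 had a log2 fold change of -0.02 (adjusted p = 0.893).

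Slc25a42, a coenzyme A carrier (chromosome 8, 70184340 to 70212305, minus strand), was at 50.8, 46.9, 40.2, 63.0 and 44.1 CPM in sham and 25.1, 43.6, 21.6, 16.1 and 28.6 CPM in TAC. TAC library 2 alone reached into the sham range. It fell by 0.86 (SE 0.27, adjusted p = 0.0252), and with any of sham 4, TAC 1, TAC 3 and TAC 4 left out the adjusted p was between 0.0541 and 0.0774.

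Slc25a47, the head-to-head neighbour of Slc25a29, was low, at 3.25, 3.54, 3.35, 3.24 and 3.45 CPM in sham and 2.51, 1.98, 2.57, 2.43 and 2.59 CPM in TAC, again without overlap. It fell by 0.47 (SE 0.16, adjusted p = 0.0323). Leaving out any of the 10 libraries except TAC library 5 took its adjusted p to between 0.0503 and 0.0723. Slc25a26, the S-adenosylmethionine carrier, whose exons share 144 bases with Lrig1 on the opposite strand, fell by 0.42 (SE 0.15, adjusted p = 0.0411) with overlapping groups. That call was lost with the ear tag as a term (0.0687), in a fit of the 2 groups alone (0.0793), and with any of sham 1 to 4, TAC 1, TAC 3 and TAC 4 left out (0.0713 to 0.128).

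Slc25a32, which carries folates and flavin (chromosome 15, 39091231 to 39112716, minus strand), had the tightest groups of the called genes. It was at 15.0, 15.3, 15.9, 15.3 and 15.3 CPM in sham and 18.7, 19.0, 18.5, 18.3 and 17.8 CPM in TAC. The groups did not overlap, and it rose by 0.26 (SE 0.06, adjusted p = 0.00625). The mitochondrial iron importers Slc25a28 and Slc25a37 had log2 fold changes of -0.27 (adjusted p = 0.147) and -0.19 (adjusted p = 0.294).

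Of the 3 tested carriers that resemble uncoupling proteins, none was called by edgeR (adjusted p from 0.10 to 0.974). 1 of the 3, Slc25a14, had an unadjusted p under 0.05 (39.6% of all genes did), at a log2 fold change of 0.36. Slc25a46, an outer membrane member tied to mitochondrial dynamics, had a log2 fold change of -0.18 (adjusted p = 0.116), and Slc25a53 was not called either (0.08, adjusted p = 0.833).

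The 5 calls for Slc25a22, Slc25a3, Slc25a29, Slc25a32 and Slc25a36 held without each of the 10 sham and TAC libraries in turn and under 7 other settings. The count of carriers called lower was 9 and fell to 5 without sham library 1, 4 without sham library 4, 5 without TAC library 1, 4 without TAC library 3 and 3 without TAC library 4. Without TAC library 2 the count called higher was 5. Ear tags fall into the 100s, 500s and 600s, which the labels do not call batches. Within the 100s (3 sham, 2 TAC) and the 600s (2 sham, 2 TAC), Slc25a3 had log2 ratios of TAC to sham of -0.43 and -0.52, and Slc25a4 of -0.36 and -0.46. For the 10 called carriers whose groups do not overlap, the direction in any such subset is fixed by that. The other 2 had ratios of -0.42 and -1.26 (Slc25a42) and -0.29 and -0.36 (Slc25a26). The sham group has no 500s tag.

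**Figure D3:**
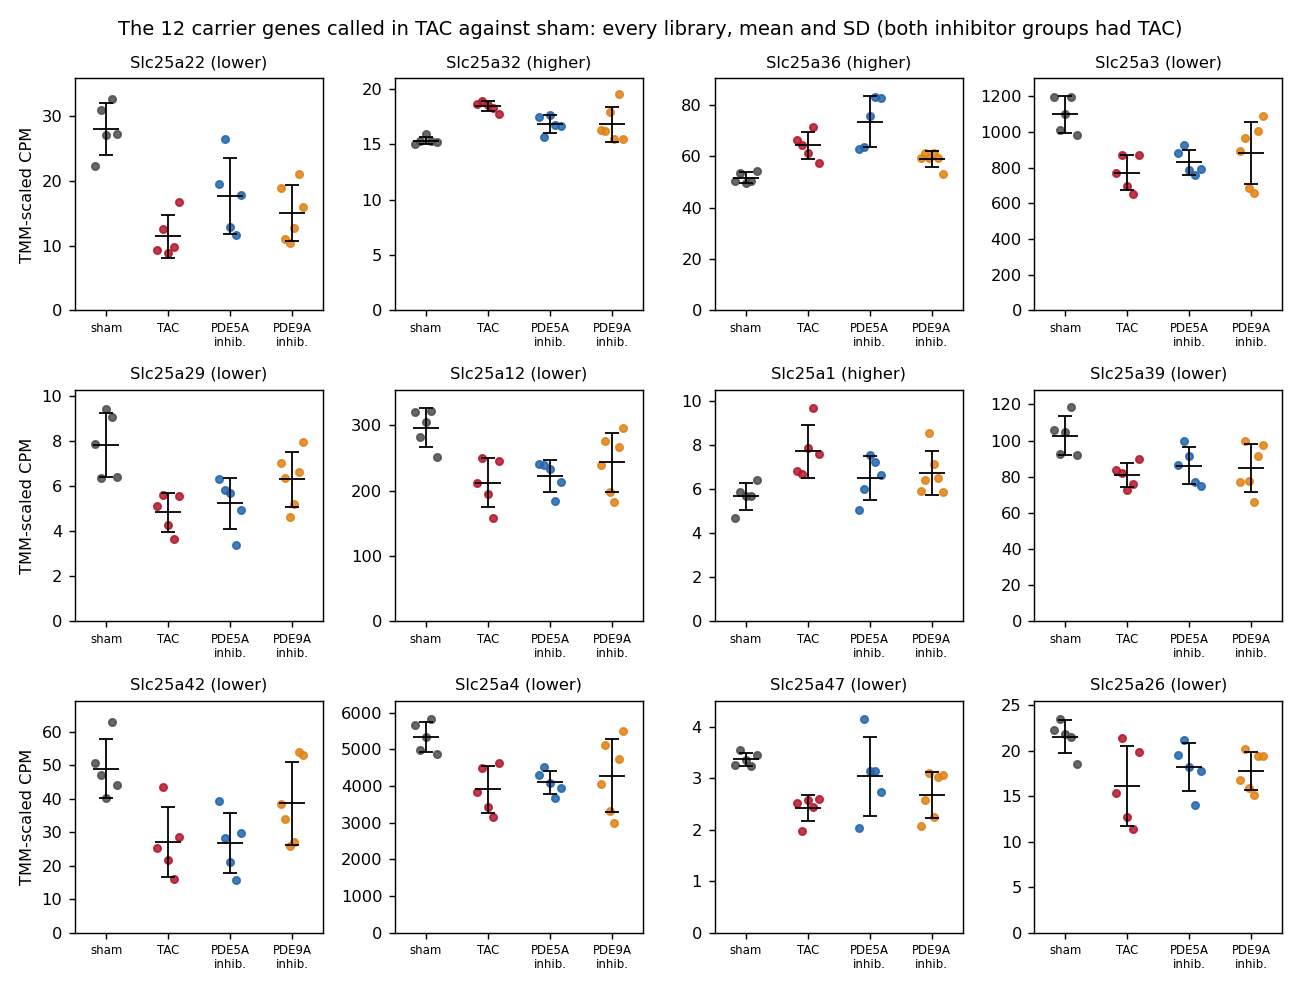
TMM-scaled CPM of the 12 carriers called in TAC against sham, 1 point per library, with the mean (horizontal mark) and SD (bars) of the 4 groups. Slc25a22 lies at 22.3 to 32.5 in sham and 8.86 to 16.7 in TAC, and Slc25a36 at 62.7 to 83.2 with the PDE5A inhibitor and 53.0 to 61.3 with the PDE9A inhibitor.

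Genes around the carriers were read from 4 lists, chosen with earlier results of these data known. The list of 10 enzymes that work with the carriers in the malate-aspartate, glycerophosphate and carnitine routes had a median log2 fold change of -0.38 in TAC. Of the 10, 7 fell (70%, against 13.0% of all genes). They include Crat, carnitine acetyltransferase (-0.64, SE 0.16, adjusted p = 0.00954), Mdh1, cytosolic malate dehydrogenase (-0.44, SE 0.11, adjusted p = 0.0101), Cpt2, which rebuilds acyl-CoA in the matrix (-0.68, SE 0.18, adjusted p = 0.0118), and Gpd2, mitochondrial glycerophosphate dehydrogenase (-0.37, SE 0.11, adjusted p = 0.0186). None of the 10 genes of the TIM22 route, which inserts carriers into the inner membrane, was called by edgeR. Their log2 fold changes ran from -0.17 to 0.03. An unadjusted p under 0.05 was found in 1 of the 10 and in 39.6% of all genes.

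Of 22 other transporters of the inner and outer membranes, 2 rose (9.09%, against 12.2% of all genes) and 6 fell (27.3%, against 13.0%). Micu2, a gatekeeper of the calcium uniporter, rose by 0.47 (SE 0.08, adjusted p = 0.00202), and Sfxn3, a sideroflexin, by 0.69 (SE 0.25, adjusted p = 0.0457). Among those that fell were Vdac3, an outer membrane channel (-0.38), Sfxn5 (-0.50), Abcb8, an ABC transporter (-0.40), and Mpc2, a subunit of the pyruvate carrier (-0.49). Of the genes with the carrier fold under other names, 4 of 5 were tested. Ucp3, uncoupling protein 3, fell by 1.63 (SE 0.59, adjusted p = 0.0484) with overlapping groups, from 76.5 ± 23.6 to 24.7 ± 23.4 CPM (SD, n = 5 each), and Mtch1, an outer membrane member of the fold, rose by 0.33 (SE 0.09, adjusted p = 0.0137). Ucp1, the uncoupling protein of brown fat, had 0 counts in 19 of 21 libraries.

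Against untreated TAC, neither inhibitor gave a call in a carrier gene. With sildenafil 0 of the 41 were called by edgeR and 0 by DESeq2, where 0.0141% of all genes were called by edgeR. An unadjusted p under 0.05 was found in 5 of the 41 and in 5.17% of all genes. Slc25a22 had the lowest p. It was at 19.6, 26.4, 12.9, 11.7 and 17.8 CPM with sildenafil, and libraries 3 and 4 lay within the TAC range of 8.86 to 16.7. Its log2 fold change against TAC was 0.63 (95% interval 0.15 to 1.11, adjusted p = 0.947). Slc25a36 was at 62.7, 63.5, 75.6, 83.2 and 82.7 CPM, and libraries 3, 4 and 5 lay above the TAC group. The difference was 0.19 on the log2 scale (95% interval 0.03 to 0.36, adjusted p = 0.947). Slc25a32 was the 1 carrier whose sildenafil libraries all lay below the TAC libraries (0.601% of all genes), with a log2 fold change of -0.13 (95% interval -0.25 to -0.01, adjusted p = 0.947). The abundant carriers had wide intervals that include 0: Slc25a4 0.07 (-0.23 to 0.37) and Slc25a3 0.10 (-0.16 to 0.36). In the same comparison all 9 tested erythroid and all 6 endothelial markers lay above 0, and all 5 activated fibroblast markers lay below 0. None of these was called by edgeR, with 1 in each of the 3 lists at an unadjusted p under 0.05. The part of these markers in the values was not tested.

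With the PDE9A inhibitor 0 of the 41 were called by edgeR and 0 by DESeq2, where 0.00707% of all genes were called by edgeR. An unadjusted p under 0.05 was found in 2 of the 41 and in 14.6% of all genes, and both carriers are given as values. Slc25a32 had a lowest, median and highest level of 15.5, 16.3 and 19.5 CPM. Its range reached from within that of sham to above that of TAC, and the log2 fold change against TAC was -0.13 (95% interval -0.25 to -0.01, adjusted p = 0.309). Slc25a29 had a lowest, median and highest level of 4.64, 6.52 and 8.00 CPM, overlapping both sham and TAC. Against TAC the log2 fold change was 0.38 (95% interval 0.03 to 0.74, adjusted p = 0.311). Slc25a4 ran from 2987 through a median of 4390 to 5497 CPM, the widest range of the 4 groups, and its log2 fold change was 0.13 (-0.16 to 0.42). In the same comparison all 7 cardiomyocyte markers lay above 0, with 0 called by edgeR and 2 at an unadjusted p under 0.05. All 4 B cell markers lay below 0, and 1 was called. All 9 tested erythroid markers lay above 0, with 0 called by edgeR and 2 at an unadjusted p under 0.05. Their part in these values was not tested. In this group the cardiomyocyte marker sum ran from 57029 to 89230 CPM. Libraries 3 and 4 had the lowest 2 of these sums (57029 and 59894 CPM) and the lowest member sums (6032 and 5504 CPM).

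Between the inhibitors, 0 of the 41 carriers were called by edgeR, where 0.00707% of all genes were. An unadjusted p under 0.05 was found in 2 of the 41 and in 10.4% of all genes. Slc25a36 was higher in every sildenafil library (62.7 to 83.2 CPM) than in every PDE9A inhibitor library (lowest 53.0, median 59.3, highest 61.3 CPM). The groups did not overlap, as in 0.375% of all genes in this direction. The log2 difference was 0.32 (SE 0.07, adjusted p = 0.237). DESeq2 called it (adjusted p = 0.03). In the same comparison all 6 endothelial markers lay above 0, none called by edgeR and 4 at an unadjusted p under 0.05, with sums of 817 to 966 CPM under sildenafil and 707 to 900 CPM under the PDE9A inhibitor. All 4 B cell markers lay above 0 and 1 was called, with sums of 3.39 to 4.83 CPM and 1.00 to 1.84 CPM. Their part in the difference was not tested. Slc25a40 was at 11.6 ± 0.947 CPM with sildenafil and 10.2 ± 0.871 CPM with the PDE9A inhibitor (SD, n = 5 and 6), a log2 difference of 0.19 (adjusted p = 0.402).

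The 3 TAC groups were each compared with the same 5 sham libraries, so these comparisons are not independent. With sildenafil, 4 carriers were lower than in sham (9.76% of the 41, against 7.80% of all genes) and 1 was higher (2.44%, against 6.81%). In the same comparison 4 of 7 cardiomyocyte markers were lower, with sums of 47383 to 68411 CPM under sildenafil. Higher were 3 of 7 fibroblast markers (sums of 2515 to 4099 CPM), 4 of 5 activated fibroblast markers (334 to 1910 CPM) and 3 of 4 B cell markers. Their part in the result was not tested. Slc25a36 was higher by 0.51 (SE 0.08, adjusted p = 0.00192), where TAC without drug had 0.32. Slc25a29 was lower by 0.58 (adjusted p = 0.0332), with sildenafil values of 6.32, 5.86, 5.69, 3.39 and 4.97 CPM. Slc25a42 had a log2 fold change of -0.87 (adjusted p = 0.0368), with values of 39.3, 28.3, 21.02, 15.6 and 29.8 CPM. Slc25a3 had -0.40 (adjusted p = 0.0375), with values of 884, 925, 788, 758 and 791 CPM, and Slc25a12 had -0.41 (adjusted p = 0.0434), with values of 241, 239, 234, 183 and 213 CPM. In these 4 and in Slc25a4 every sildenafil library lay below every sham library, as in 8.75% of all genes. None of these 4 calls held with the ear tag as a term (adjusted p from 0.162 to 0.213). No sildenafil mouse has a 100s tag and no sham mouse a 500s tag. Tag and group are thus partly confounded, and this term cannot separate them well. The count of lower carriers was 0 with any of sham 1, 3, 4 and sildenafil 3, 4, 5 left out and 1 without sham 2. Without sildenafil library 2 the count of higher carriers was 2. Slc25a22, called in untreated TAC, had -0.66 (adjusted p = 0.0549).

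With the PDE9A inhibitor, 1 carrier was lower than in sham (2.44% of the 41, against 1.65% of all genes) and 0 were called higher by edgeR (2.17% of all genes), with 11 of the 41 at an unadjusted p under 0.05 in either direction, where 27.2% of all genes were. In this group the fibroblast marker sum was 2689 to 5078 CPM and the activated fibroblast sum 202 to 1534 CPM. Against sham, 0 of 7 cardiomyocyte markers were called by edgeR, with 2 at an unadjusted p under 0.05. Higher were 2 of 7 fibroblast and 2 of 5 activated fibroblast markers. All 6 endothelial markers lay below 0 and 1 was called lower, with sums of 771 to 962 CPM in sham and 707 to 900 CPM in this group. Their part in the result was not tested. Slc25a22 had a lowest, median and highest level of 10.4, 14.4 and 21.1 CPM, all below the lowest sham library at 22.3. This carrier and Slc25a47 were the 2 of 41 whose groups did not overlap in that direction, against 1.87% of all genes. Its log2 fold change was -0.90 (SE 0.22, adjusted p = 0.0322). The call was lost with any of sham 1 to 4 and PDE9A inhibitor libraries 3 and 4 left out (0.0615 to 0.0841), with the ear tag as a term (0.126) and in a fit of the 2 groups alone (0.076). Most PDE9A inhibitor mice have a 500s tag and no sham mouse does, so tag and group are partly confounded here too. The count of lower carriers was 2 without PDE9A inhibitor library 2 and 3 without library 6. Slc25a4 and Slc25a3 had log2 fold changes of -0.32 (adjusted p = 0.147) and -0.31 (adjusted p = 0.108).

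**Figure D4:**
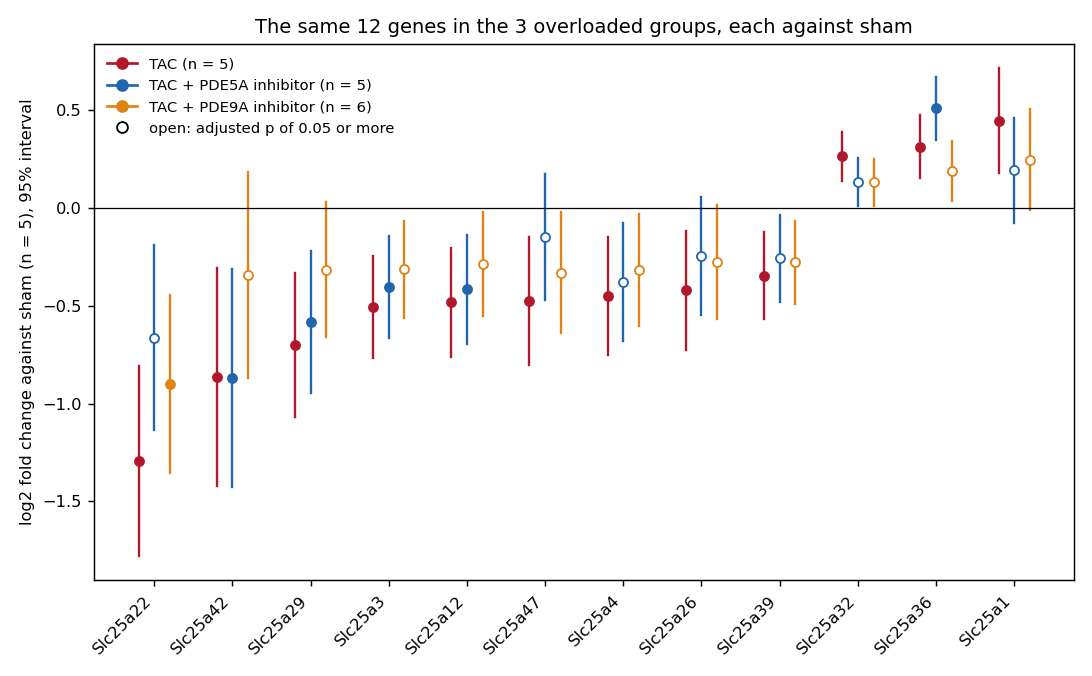
Log2 fold changes against the shared sham libraries with 95% intervals for the 12 carriers called in TAC against sham, shown for TAC, TAC with the PDE5A inhibitor and TAC with the PDE9A inhibitor; open points are not called. Slc25a22 is at -1.29, -0.66 and -0.90, and Slc25a36 at 0.32, 0.51 and 0.19.

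From the lists, 3 of the 10 shuttle enzymes were lower with sildenafil than in sham (30%, against 7.80% of all genes). They were Gpd2 (-0.37, adjusted p = 0.0312), Mdh1 (-0.35, adjusted p = 0.0397) and Cpt1a, the outer membrane palmitoyltransferase (-0.29, adjusted p = 0.0399). Among the 22 other transporters 2 were higher (9.09%, against 6.81% of all genes), among them Micu2 (0.31, adjusted p = 0.0158). Lower were 2 (9.09%, against 7.80%), Sfxn5 (-0.48, adjusted p = 0.0276) and Vdac3 (-0.31, adjusted p = 0.0407). Mtch1 was higher by 0.27 (adjusted p = 0.0487). With the PDE9A inhibitor the listed gene called was Micu2, at 0.32 (adjusted p = 0.0301).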

How the data were processed

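Total RNA libraries (TruSeq Stranded Total RNA kit, per the labels' protocols) came from 21 mice. The authors deposited expected counts per gene, and the submitters' processing notes name RSEM 1.3.0, HISAT2 2.0.5, CASAVA 1.8.4 and, beside build mm10, DESeq2 1.18.1, without saying what each did. The annotation was not stated. Of the deposited expected counts 19% have decimals, and counts for Slc25a3, Slc25a4, Slc25a42 and Slc25a51 did so in every library, as where reads shared between genes are divided by estimate. Exons of 12 members overlap other genes on the opposite strand, among them Slc25a26 and Slc25a11, and nothing states whether counting used strand.

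Expected counts were rounded and fitted with edgeR 4.0.16 (R 4.3.3, robust quasi-likelihood, filterByExpr, TMM), with 1 fit of the 4 groups and adjustment over all tested genes; SE is the log2 fold change over the root of F. The script was tested on simulated data. Alternatives were DESeq2 size factors, DESeq2 1.42.0, no filter, a mean of at least 5 CPM, the 2 groups alone, a replicate block, an ear tag term and each library left out. Groups follow the labels. P-values measure the spread between these animals. Values in every library are given for 6 carriers central in heart and for the called members with the lowest adjusted p, up to 6 a direction in TAC against sham and 4 elsewhere (or the 2 with the lowest p); up to 4 called genes are named per list, and 1 listed gene is not reported here. Members and lists were chosen with earlier results of these data known. Coordinates are GENCODE M21 (GRCm38), which matched all 47 members, and promoter windows RefSeq GRCm38.p6.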

Additional observations from a re-analysis of the deposited data

Results flagged for a closer look

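Within the 4 groups, 7 of 164 combinations of a tested carrier and a group (4.27%) held a library far from the others by Dixon's test, which chance gives in about 1 of 20. Slc25a2, an ornithine carrier of very low level here, was at 0.0419 CPM in PDE9A inhibitor library 6, with the next at 0.438. Slc25a36 was lowest in the same library, at 53.0 CPM, with the next at 59.2. Slc25a13 was at 170 CPM in TAC library 4, with the next at 199. Slc25a17, the peroxisomal coenzyme A and nucleotide carrier, was at 10.7 CPM in TAC library 2, with the next at 12.6. Slc25a47 was also lowest there, at 1.98 CPM, with the next at 2.43. Slc25a25, an ATP-magnesium and phosphate carrier, was at 29.6 CPM in sham library 2, with the next at 11.4. Slc25a31, the testis translocase, was at 0.690 CPM in sham library 4, with the next at 0.271.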

How the results depend on the processing

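Over the named carriers and all alternatives, 437 values kept their side of the threshold and 79 kept direction but no longer passed. A further 7 came to pass, and 0 changed sign as a call. The 437 include carriers that were not called in the fit of the 4 groups and stayed so, such as Slc25a5 in TAC against sham. All 79 losses fall on calls of that fit. The 437 therefore do not measure how well the calls held. Without each library in turn, carriers called lower in TAC against sham numbered 3 to 12 and higher 2 to 5; under the other settings they numbered 8 to 11 and 3. For sildenafil against sham the lower count was 0 to 5 and the higher count 1 to 2 without each library, the lower count was 2 without a filter, 0 with the ear tag term and 8 in a fit of the 2 groups alone, and the higher count in that last fit was 2. For the PDE9A inhibitor against sham the lower count was 0 to 3 without each library, 0 with the ear tag term, 0 in a fit of the 2 groups alone, and 0 without its libraries 1 and 4 together, an alternative chosen after seeing that these had the highest share of Rn45s counts (0.326% and 0.416%). Between the inhibitors DESeq2 called 1 carrier higher. The cause of these shifts was not tested.

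Replicate numbers are shared between groups in the labels. Between groups, 8 of the 30 pairs of libraries with the same number had deviations that correlated over 0.1 (median 0.02). Of the 135 pairs with other numbers, 40 did so (median -0.02). With 3 libraries correlating best with their own number, the numbers were not taken to pair animals. With a replicate block the PDE9A inhibitor against sham gave 6 lower carriers, and Slc25a20 passed in TAC against sham (adjusted p = 0.0197). Slc25a47 was not tested where a mean of at least 5 CPM was required. Low carriers such as Slc25a2 and Slc25a31 are limited by depth.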

Other observations

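Ratios within a library were compared for 4 pairs of related carriers, chosen after the values were seen, by a two-sided exact permutation test over libraries in each of 6 comparisons, 24 tests in all. The ratio of Slc25a4 to Slc25a5 CPM was 17.1 ± 1.03 in sham and 12.3 ± 2.94 in TAC (SD, n = 5 each), a log2 difference of -0.50 (exact p = 0.0159, adjusted 0.0952). The ratio of Slc25a12 to Slc25a13 was 1.40 ± 0.0874 in sham and 1.07 ± 0.129 in TAC, a log2 difference of -0.39 (exact p = 0.00794, the smallest that 5 against 5 allows, adjusted 0.0635), and every TAC library lay below every sham library. With sildenafil against sham the differences were -0.44 for Slc25a4 over Slc25a5 and -0.32 for Slc25a12 over Slc25a13 (exact p = 0.00794 and adjusted 0.0635 for each). None of the 24 passed an adjusted p of 0.05. Where 5 libraries met 5 without overlap, the smallest possible exact p became 0.0635 after adjustment. Such a comparison could therefore not pass here, and nothing is concluded from that. The ratio of Slc25a28 to Slc25a37 had a log2 difference of -0.12 in TAC against sham (exact p = 0.587), and that of Slc25a36 to Slc25a33, both pyrimidine nucleotide carriers, had 0.60 (exact p = 0.0397, adjusted 0.136).

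Another 3 pairs of carriers lie close together on a chromosome. In each, 1 member was at or near 0 in this tissue: Slc25a41 beside Slc25a23 (2.1 kb apart), Slc25a54 beside Slc25a24 (6.5 kb) and Slc25a43 beside Slc25a5 (18.4 kb).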
